A study of Mus musculus with 8 samples.

Results

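The genes for glutamate receptors and their auxiliary subunits were described in neurons of 3 nuclei of the mouse hypothalamus. The set held 34 genes of the 34836 gene names on the array, chosen by name: 4 AMPA receptor subunits, 5 kainate receptor subunits, 7 NMDA receptor subunits, 1 delta receptor, 7 metabotropic receptors, 6 transmembrane AMPA receptor regulatory proteins (TARPs), 2 cornichon homologues and 2 Neto proteins. The choice was made with earlier results of these data known. The tissues were the arcuate nucleus (Arc, 2 samples), the ventromedial nucleus (VMH, 3 samples) and the dorsomedial nucleus (DMH, 3 samples), each sample on a 1-colour array of its own. All samples came from female mice aged 2 months of the cross Nkx2-1-CreERT2 x Rosa-ZsGreen, in which tamoxifen turned on the fluorescent reporter ZsGreen wherever Nkx2-1 drove the recombinase. Reporter-positive neurons were collected with a laser microdissection system and pooled. Each value is thus an average over neuron types of the Nkx2-1 lineage in that nucleus and any other cells collected with them. Markers of glial and endothelial cells were also well above background, as described below. No mice of another genotype or without tamoxifen were compared. Which animals went into which sample is not given in the labels, so the p-values reflect only how far these samples differ from each other, and part of that can be technical.

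Glutamate is the main fast excitatory transmitter of the hypothalamus. AMPA and kainate receptors are ion channels that open within milliseconds, NMDA receptors are channels that need glutamate and depolarisation together and pass calcium, and metabotropic receptors act through G proteins. TARPs and cornichon homologues bind AMPA receptors and set their traffic to the surface and their kinetics, while Neto proteins do the same for kainate receptors. In the arcuate nucleus, NMDA receptors on AgRP neurons are known to be needed for the feeding drive after a fast in mice.

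Each gene was read by 1 or more short oligonucleotide probes, and 60-base probes behind the differences described here are shown because several of these genes gave different patterns through different probes. Sequences are those of the array design, written 5′ to 3′ in lower case, and positions are the design's in mouse genome build mm9. Probes for Gria3 (A_52_P179309, chrX:39007367-39007426, plus strand), Grin3a (A_55_P1980471, chr4:49678098-49678157, minus strand) and Grm4 (A_55_P2073682, chr17:27571527-27571586, minus strand) are given whole. The first 30 bases are given for Cacng5 (A_52_P86353, chr11:107736263-107736322, minus strand), Cnih3 (A_51_P424471, chr1:183389705-183389764, plus strand) and Grm5 (A_55_P2033425, chr7:95282581-95282640, plus strand). All 50 kept probes of the members lie on the chromosome that RefSeq gives for their gene; exon and UTR limits in mm9 were not used here.
Gria3 probe: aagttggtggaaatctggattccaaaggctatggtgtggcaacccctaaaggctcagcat
Grin3a probe: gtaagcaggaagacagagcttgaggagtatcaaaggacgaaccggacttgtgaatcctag
Grm4 further probe: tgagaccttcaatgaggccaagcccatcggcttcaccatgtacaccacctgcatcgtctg
Cacng5 probe, first 30 bases: aacttttgtcaatgttattaacacctgtga
Cnih3 probe, first 30 bases: tcgtctggatggtagaaatgaggccagatg
Grm5 probe, first 30 bases: attgtataatggctctgctgcagtctgtga

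Arc neurons differed from the other nuclei in 4 members, in both directions. The TARP gene Cacng5 was 5.12-fold higher in Arc than in the mean of DMH and VMH, while the metabotropic receptor gene Grm5 (3.02-fold), the AMPA subunit gene Gria3 (3.09-fold) and the NMDA subunit gene Grin3a (2.21-fold) were lower. VMH neurons had 3.42-fold more signal for the cornichon gene Cnih3 than the mean of DMH and Arc. No member passed the test in DMH against the mean of VMH and Arc. The other members gave smaller or more variable differences, which are set out by receptor family.

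These calls come from a linear model over all 8 arrays (limma), with p-values adjusted over 27419 genes and a threshold of 0.05. Levels are log2 signals relative to the array's 75th percentile, so 0 is the level that 75% of the spots on the array stay under, and a difference of 1 is a factor of 2. Of 34 members, 32 were well above background on all 8 arrays (94.1%, against 69.9% of all gene names), and these 32 were tested. In Arc against the mean of DMH and VMH, 1 of 32 members was higher (0.193% of all genes) and 3 were lower (0.416% of all genes). In VMH against the mean of DMH and Arc, 1 member was higher (0.872% of all genes) and 1, again Cacng5, was lower (0.47% of all genes). In DMH against the mean of VMH and Arc, 0 were higher (0.365% of all genes) and 0 lower (0.474% of all genes) with limma, and 12 of 32 had an unadjusted p under 0.05 (16.3% of all genes). At that unadjusted level there were 8 in Arc (15.7% of all genes) and 14 in VMH (13.1% of all genes). The 3 comparisons use the same 8 arrays and are not independent, and with at most 3 calls in a direction the counts rest on single genes. With the replicate number as a block in the fit, 0 of 32 members passed in any comparison with limma, and the calls named here had adjusted p-values of 0.0508 to 0.117.

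Among pairs, 1 member was lower in DMH than in VMH (0.788% of all genes) and 0 were higher (0.441%). In DMH against Arc 1 was higher (0.241% of all genes) and 1 lower (0.175%), and in VMH against Arc 3 were higher (0.66%) and 1 lower (0.317%). The pairs involve the same genes: Cnih3 in the first, Grm5 and Cacng5 in the second, and Gria3, Grin3a, Grm5 and Cacng5 in the third.

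**Figure D1:**
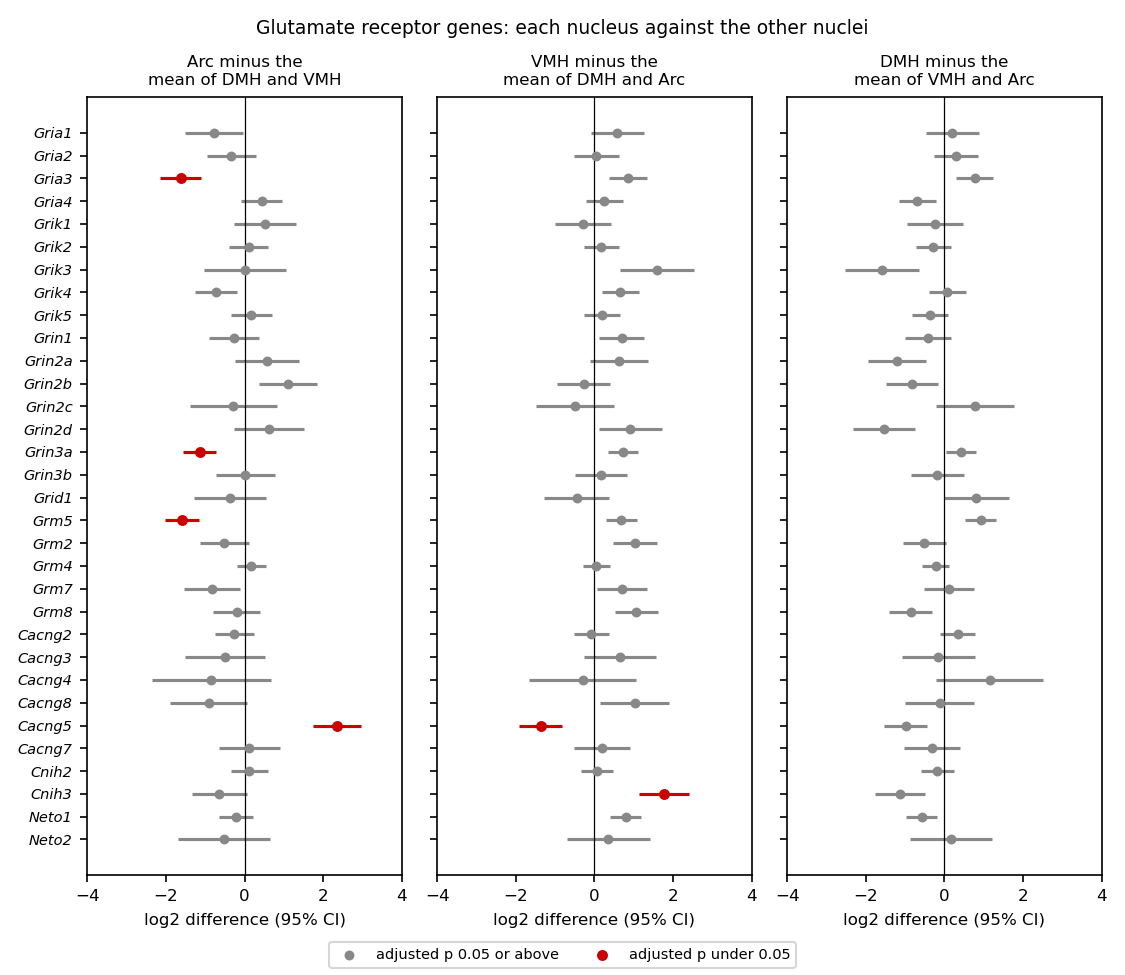
Log2 difference of each nucleus from the mean of the other nuclei for 32 genes, with 95% confidence intervals from the limma fit (2 Arc, 3 VMH and 3 DMH arrays). Red marks an adjusted p under 0.05: Cacng5, Gria3, Grin3a and Grm5 in Arc, and Cnih3 and Cacng5 in VMH, with none in DMH.

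Most members had their highest mean in VMH, although few passed the test one by one. Members were chosen with earlier results of these data known, so their shares beside all genes are a description with no test. The highest of the 3 nucleus means lay in VMH for 20 of 32 members (30.9% of all genes), in DMH for 6 (29.7%) and in Arc for 6 (39.4%). The lowest lay in DMH for 15 (37.9% of all genes), in Arc for 13 (32.8%) and in VMH for 4 (29.3%). The median log2 difference of VMH from the mean of DMH and Arc was 0.47 over the members and 0.01 over all genes, and it was above 0 for 25 of 32 members and 50.7% of all genes. The 6 neuronal markers had a median of 0.44 in the same comparison, and 3 of 6 had an unadjusted p under 0.05 (13.1% of all genes). Their part in the members' shift was not tested. The members' median was 0.40 with another background correction (normexp), 0.45 after quantile normalization and 0.57 with the mean of a gene's probes. In 6 of 32 members (Cnih3, Grik4, Grin1, Grm2, Grm8 and Neto1) all VMH arrays lay above all other arrays with the brightest probe, as in 5.48% of all genes, and in 0 all lay below (4.05%). With the further probes of Grin1 and Neto1, VMH and DMH overlapped. All Arc arrays lay below all others in 4 members (6.65% of all genes) and above them in 2 (10.1%), and all DMH arrays lay below in 4 (5.68%) and above in 1 (3.59%).

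Markers of the dissected cells and of other cell types moved with the nuclei, and their part in these differences was not tested. All 6 neuronal markers were well above background on every array, and 1 of 6, the synaptic vesicle gene Syt1, was lower in Arc than in the mean of DMH and VMH (log2 difference −1.48 ± 0.17 SE, adjusted p = 0.0157). Their summed level relative to the 75th percentile was 274 to 283 in Arc, 187 to 227 in DMH and 250 to 300.2 in VMH, while their mean log2 level was 3.60 to 3.79 in Arc, 3.90 to 4.03 in DMH and 4.24 to 4.32 in VMH. None of 8 microglial and none of 5 tanycyte and ependymal markers passed the test in Arc with limma. An unadjusted p under 0.05 was found for 2 and 3 of them (15.7% of all genes). The summed microglial level was 212 to 243 in Arc, 112 to 150 in DMH and 159 to 188 in VMH. Most of it came from Itgam, whose mean log2 level was 7.61 in Arc, 6.77 in DMH and 7.22 in VMH. The mean log2 level of the 8 microglial markers was 0.99 to 1.03 in Arc, 0.51 to 0.64 in DMH and 0.24 to 0.54 in VMH. The order of DMH and VMH thus depended on the measure. The summed tanycyte and ependymal level was 3.76 to 4.42 in Arc, 0.915 to 1.30 in DMH and 2.14 to 2.67 in VMH, and Nes was not above background on any DMH array. Of these markers, Col23a1 was lower in DMH than in the mean of VMH and Arc (log2 difference −1.83, adjusted p = 0.0358). Astrocyte markers summed to 9.28 to 11.2 in Arc, 14.7 to 15.2 in DMH and 9.45 to 15.1 in VMH; Gja1 was not above background on any VMH or Arc array, and Gjb6 was higher in DMH (log2 difference 1.19, adjusted p = 0.0358). The sums for oligodendrocyte markers were 10.1 to 18.4 in Arc, 15.4 to 21.5 in DMH and 19.6 to 29.9 in VMH, with Mog not above background in Arc. None of 10 oligodendrocyte, 3 oligodendrocyte precursor and 5 endothelial markers passed the test with limma in any comparison of a nucleus with the others. In Arc, 2 of 10, 0 of 3 and 1 of 5 had an unadjusted p under 0.05 (15.7% of all genes). All 5 Arc, 4 VMH and 4 DMH markers passed the test as higher in their nucleus than in the mean of the others. These lists were chosen with earlier results of these data known. In DMH against VMH, all 4 DMH markers passed as higher and all 4 VMH markers as lower, and all 5 Arc markers were lower in VMH than in Arc. In the other pairs fewer passed: 3 of 4 DMH markers were higher in DMH than in Arc, 2 of 4 VMH markers were higher in VMH than in Arc, and 4 of 5 Arc markers were lower in DMH than in Arc. The DMH marker Bsx overlapped between DMH and Arc. Between 72.4% and 78.7% of probes were well above background, and the 75th percentile was 1806 and 1818 in Arc, 1866 to 2036 in VMH and 2107 to 3042 in DMH intensity units.

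The AMPA receptor subunits form the channel itself, and of these Gria3 (GluA3) differed between nuclei. Its log2 level was −1.16 and −0.91 in Arc, against 0.89, 0.60 and 0.20 in DMH and 0.65, 0.47 and 0.74 in VMH. Both Arc arrays lay below all 6 others, and DMH and VMH overlapped. The log2 difference of Arc from the mean of DMH and VMH was −1.63 ± 0.23 SE (adjusted p = 0.0319). VMH was above Arc by 1.66 (adjusted p = 0.0329), whereas the difference of DMH from Arc, 1.60, missed the threshold (adjusted p = 0.0547). The Arc call rests on the full set of arrays: it ended when any 1 array other than DMH replicate 3 was left out (adjusted p 0.0523 to 0.111). A further Gria3 probe placed 23732 bases away was not well above background on either Arc array and was at least 2.32-fold lower there; it had passed the filter through DMH and VMH, so this is a description with no test. In this bound, arrays below background are set to the lowest signal that counts as above it. In pooled tissue of this kind, fewer cells with a transcript and less of it in each cell cannot be told apart.

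The other AMPA subunits gave no call. Gria1 (GluA1) ranged from −0.22 to 1.34 over the arrays, with a log2 difference of −0.77 for Arc (95% CI −1.52 to −0.03, adjusted p = 0.303). Gria2, whose edited product GluA2 blocks calcium entry through the channel, ranged from 1.47 to 2.40 with its brightest probe and differed by at most 0.34 between any nucleus and the mean of the others. A further Gria2 probe, well above background on every array, differed by 0.84 in DMH (adjusted p = 0.264) and −0.88 in Arc (adjusted p = 0.284). Gria4 (GluA4) ranged from 2.31 to 3.48, and all 3 DMH arrays lay below all others (log2 difference −0.69, adjusted p = 0.184).

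No kainate receptor subunit passed the test, but Grik3 was among the most variable members. Grik3, whose product GluK3 has a low affinity for glutamate, read 1.91, 3.02 and 3.06 in VMH, against 0.26, 0.37 and 1.02 in DMH and 0.95 and 2.27 in Arc. All VMH arrays lay above all DMH arrays, while the Arc arrays were 1.32 log2 units apart and spanned the gap. The log2 difference of DMH from VMH was −2.12 (95% CI −3.16 to −1.08, adjusted p = 0.0846). A further Grik3 probe read −0.93, −0.69 and −0.08 in VMH, against −2.94, −4.13 and −2.04 in DMH, where 1 array was not well above background, and −1.12 and −1.73 in Arc. With this probe VMH was above every other array. The probe had passed the filter through VMH and Arc only, so this is a description with no test.

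Grik4, which encodes the high-affinity subunit GluK4, read 1.38, 1.49 and 1.26 in VMH, against 0.87, 1.05 and 1.04 in DMH and 0.81 and 0.09 in Arc. VMH lay above all other arrays, with a log2 difference of 0.66 from the mean of DMH and Arc (adjusted p = 0.216). The remaining kainate subunits varied little with their brightest probes. Grik2 spanned 0.78 log2 units over all arrays, Grik5 0.86 and Grik1 1.34, the last set by a single Arc array at −2.02 against −2.96 or below on the rest. For Grik2 the 95% interval of every nucleus against the mean of the others lay within −0.73 and 0.62.

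Among NMDA receptor subunits, Grin3a was lower in Arc, and no GluN2 gene passed the test. Grin3a encodes GluN3A, which lowers the calcium permeability of the channel. Its level was −1.36 and −1.40 in Arc, against −0.51, −0.12 and −0.37 in DMH and −0.03, −0.11 and −0.24 in VMH. The Arc arrays were 0.04 apart and clear of the other 6, and the log2 difference of Arc from the mean of DMH and VMH was −1.14 ± 0.18 SE (adjusted p = 0.0482). VMH was above Arc by 1.25 (adjusted p = 0.0414), and the difference of DMH from Arc was 1.04 (adjusted p = 0.0937). The Arc call was close to the threshold and ended when any 1 array was left out (adjusted p 0.0651 to 0.138).

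A further Grin3a probe, placed 3410 bases away, read −2.94 and −3.57 in Arc, against −1.04, −1.56 and −0.87 in DMH and −0.63, −1.0 and −0.86 in VMH. This probe set Arc apart by more: with each probe fitted on its own over all 41485 probes, its log2 difference was −2.27 ± 0.27 SE (adjusted p = 0.0205, where 0.335% of all probes were lower in Arc). DMH exceeded Arc by 2.10 with it (adjusted p = 0.0416) and VMH exceeded Arc by 2.43 (adjusted p = 0.019, where 0.53% of all probes were higher). Fitted the same way, the brightest Grin3a probe had an adjusted p of 0.0627 for Arc, so the call rested on how a gene was summarised.

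The GluN2 subunits give NMDA receptors their decay time and pharmacology. Grin2d (GluN2D, slow decay) read −1.36, −1.96 and −1.08 in DMH, against 0.28, 0.03 and 0.18 in VMH and −0.73 and 0.67 in Arc. Every DMH array lay below every other array, but the Arc arrays were 1.40 apart, and the log2 difference of −1.54 (95% CI −2.33 to −0.74) had an adjusted p of 0.118. Grin2a (GluN2A) showed the same order, with −1.14, −0.38 and −0.31 in DMH, against 0.20, 0.60 and 1.05 in VMH and 0.14 and 1.00 in Arc. The Grin2a difference for DMH was −1.20 (adjusted p = 0.156), and a further Grin2a probe, well above background on every array, overlapped between the nuclei with a difference of −0.27.

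Grin2b (GluN2B) gave opposite patterns through its probes. The brightest probe read 3.84 and 3.68 in Arc, against 1.91, 3.03 and 2.49 in DMH and 2.67, 3.25 and 2.61 in VMH, all below Arc. A further probe 1587 bases away read −2.85 and −6.12 in Arc, against −1.54, −1.90 and −1.69 in DMH and −1.30, −2.33 and −1.55 in VMH, all above Arc; Arc replicate 2 was not well above background with it. The log2 difference of Arc was 1.1 with the brightest probe (adjusted p = 0.177). The further probe was at least 3.32-fold lower in Arc with the dim array set to the lowest signal well above background. It had passed the filter through DMH and VMH, so this is a description with no test. The direction for Grin2b was not settled by these arrays. Grin1, the subunit that every NMDA receptor carries, ranged from 1.76 to 3.17 with its brightest probe, with all VMH arrays above the rest (log2 difference 0.69, adjusted p = 0.284). A further Grin1 probe read 2.04, 1.84 and 1.91 in VMH, and DMH replicate 2 lay above these at 2.05. Grin2c ranged from −2.71 to −0.87 and Grin3b from −0.29 to 0.84, both overlapping between all nuclei. The delta receptor gene Grid1, which encodes a synapse organiser, ranged from 0.20 to 2.19, and DMH differed from the mean of VMH and Arc by 0.81 (adjusted p = 0.311).

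**Figure D2:**
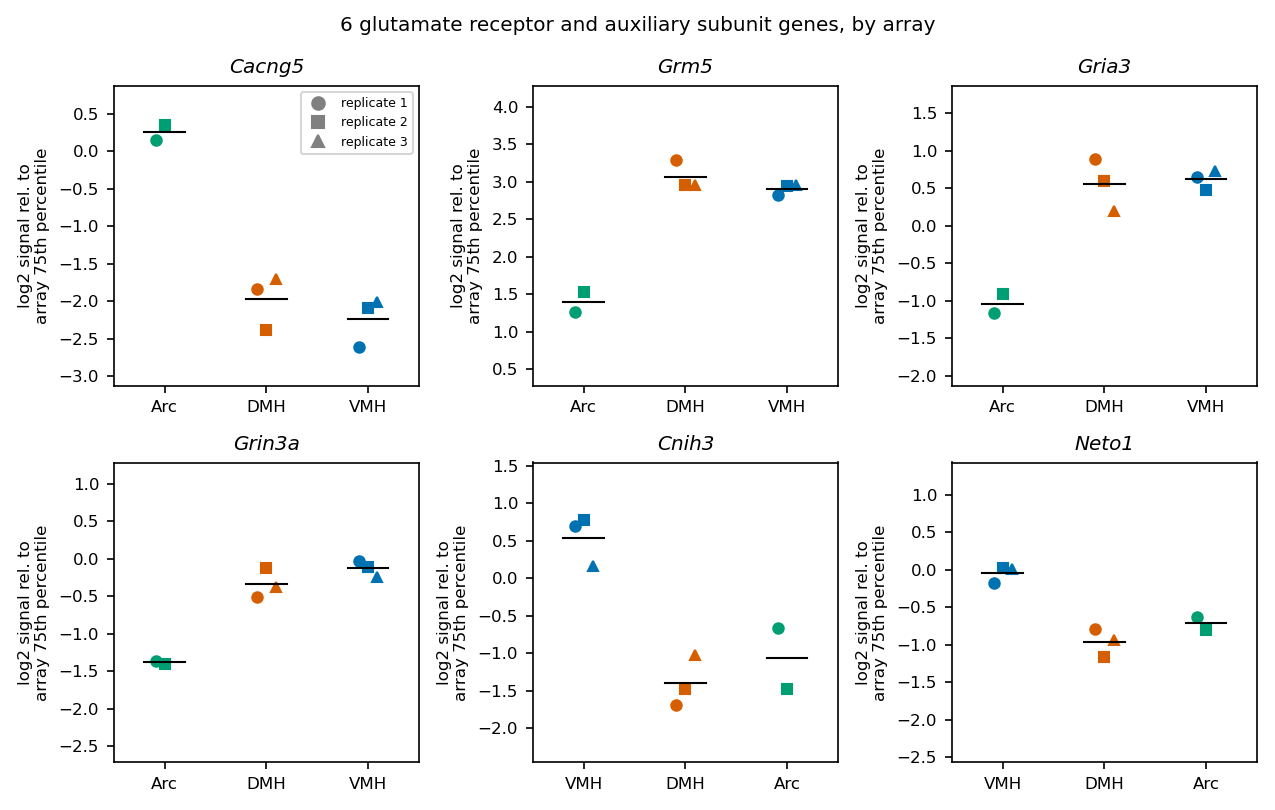
Log2 signal relative to the array's 75th percentile on each array, for the 5 genes past the threshold and Neto1; symbols are replicates and lines are means of 2 Arc, 3 DMH and 3 VMH arrays. Cacng5 is above the other nuclei on both Arc arrays, Grm5, Gria3 and Grin3a are below them, and Cnih3 and Neto1 are above them on all VMH arrays.

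Of the metabotropic receptors, Grm5 was lower in Arc. Grm5 encodes mGlu5, a group I receptor that couples through Gq to phospholipase C and calcium release. It read 1.27 and 1.53 in Arc, against 3.29, 2.96 and 2.96 in DMH and 2.83, 2.95 and 2.95 in VMH. The DMH and VMH arrays lay within 0.47 of each other, and both Arc arrays were more than 1 log2 unit below them. Arc differed from the mean of DMH and VMH by −1.59 ± 0.19 SE (adjusted p = 0.0183), DMH from Arc by 1.67 (adjusted p = 0.0308) and VMH from Arc by 1.51 (adjusted p = 0.0224). For DMH against the mean of VMH and Arc, Grm5 came closest to the threshold of all members (log2 difference 0.92, adjusted p = 0.0696). Both further Grm5 probes had all Arc arrays below the rest, with differences of −2.40 (adjusted p = 0.176) and −1.22 (adjusted p = 0.251). The Arc call ended without Arc replicate 1, DMH replicate 2 or any 1 VMH array (adjusted p 0.0508 to 0.0711).

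Group II and III metabotropic receptors lower cyclic AMP through Gi/o proteins and often sit on nerve endings. Grm2 (mGlu2) read 2.39, 2.57 and 2.81 in VMH, against 1.45, 1.39 and 1.86 in DMH and 1.17 and 1.96 in Arc. Grm8 (mGlu8) read −1.65, −1.57 and −1.06 in VMH, against −3.03, −2.31 and −2.80 in DMH and −2.18 and −2.35 in Arc. For both genes the VMH arrays lay above all others. The log2 differences of VMH from the mean of DMH and Arc, 1.02 for Grm2 (adjusted p = 0.11) and 1.06 for Grm8 (adjusted p = 0.0915), missed the threshold. Grm7 (mGlu7) ranged from −0.58 to 0.99, with a difference of 0.71 in VMH (adjusted p = 0.327).

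Grm4 (mGlu4) gave different patterns through its probes. Its brightest probe was flat, ranging from 0.33 to 0.68, with a log2 difference of 0.18 for Arc (95% CI −0.20 to 0.55). The further probe, 12178 bases away and well above background on all arrays, read −1.35 and −1.40 in Arc, against 0.62, 1.79 and 1.32 in DMH and 0.63, 0.76 and 0.42 in VMH. Fitted on its own, it was 4.91-fold lower in Arc than in the mean of DMH and VMH (log2 difference −2.29 ± 0.31 SE, adjusted p = 0.0318) and higher in DMH than in Arc by 2.62 (adjusted p = 0.032, where 0.287% of all probes were higher). Which transcripts each probe reads was not examined here.

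Grm3 and Grm6 were too dim to test. Grm3 (mGlu3, found in astrocytes as well as neurons) was well above background on 5 arrays, with log2 values from −4.57 to −3.41. Grm6 (mGlu6, best known from ON bipolar cells of the retina) was well above background on 3 arrays, with values from −4.91 to −2.72. Neither reached that level on all arrays of any nucleus.

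**Figure D3:**
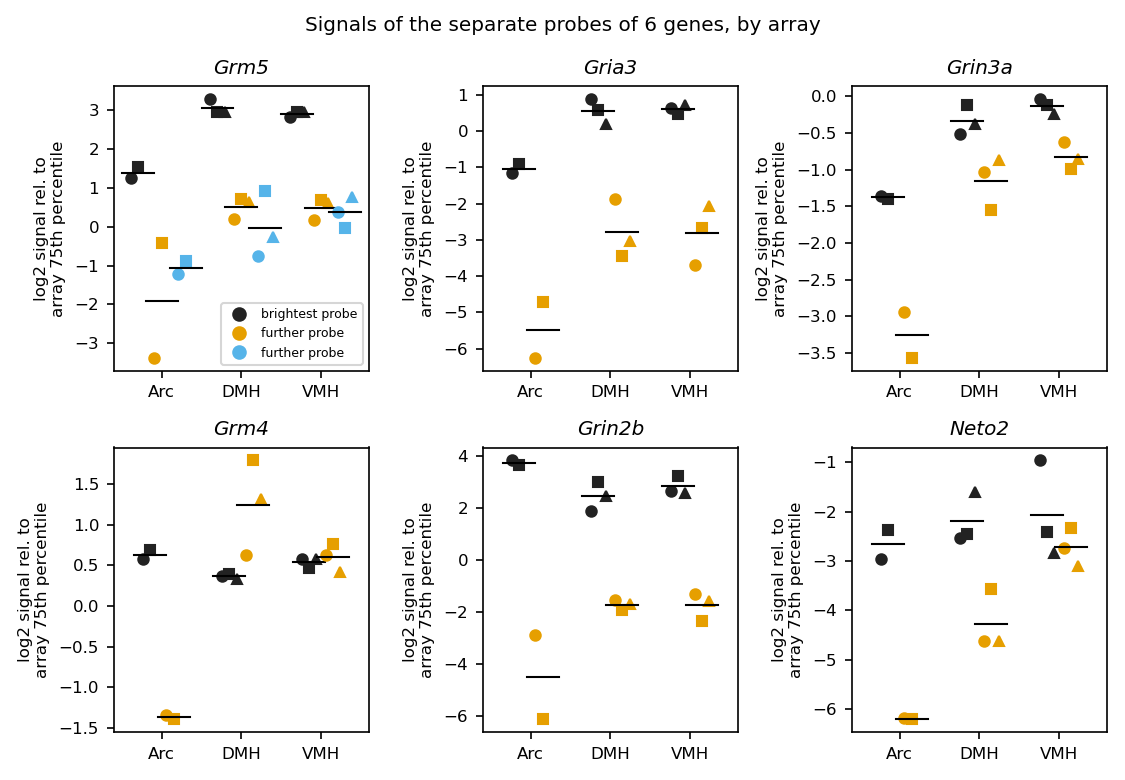
Log2 signal relative to the array's 75th percentile for the separate probes of 6 genes, on 2 Arc, 3 DMH and 3 VMH arrays; black is the brightest probe, colours are further probes, symbols are replicates (circle 1, square 2, triangle 3) and lines are means. Probes of Grm5, Gria3 and Grin3a all lie lower in Arc, while for Grm4, Grin2b and Neto2 the probes of 1 gene differ in pattern. Values of probes not well above background (Gria3 and Neto2 in Arc, Neto2 on 1 DMH array, Grin2b on Arc replicate 2) are drawn as read, not as bounds.

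Among the auxiliary subunits, Cacng5 had the largest difference of the 32 members between Arc and the other nuclei. It encodes γ-5, a type II TARP that modulates AMPA receptor gating and conductance. The gene read 0.16 and 0.35 in Arc, against −1.84, −2.39 and −1.70 in DMH and −2.61, −2.09 and −2.01 in VMH. The lowest Arc array lay 1.86 log2 units above the highest of the other arrays. Arc differed from the mean of DMH and VMH by 2.36 ± 0.26 SE (adjusted p = 0.0146), DMH from Arc by −2.23 (adjusted p = 0.0354) and VMH from Arc by −2.49 (adjusted p = 0.0131). The call for Arc, and that for VMH against Arc, held when any 1 array was left out.

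VMH was also lower than the mean of DMH and Arc for Cacng5 (log2 difference −1.37, adjusted p = 0.0397), but VMH and DMH overlapped. That call ended without any 1 array other than DMH replicate 2 (adjusted p 0.0799 to 0.151). The array holds 1 probe for Cacng5. The other type II TARP, Cacng7 (γ-7), ranged from 3.00 to 4.29, and the lowest value was that of DMH replicate 1.

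Type I TARPs include stargazin (Cacng2), the founding AMPA receptor auxiliary subunit, and none of the 4 passed the test. Cacng2 ranged from 1.02 to 1.85 and Cacng3 from −0.76 to 1.13. Cacng8 (γ-8) read 2.81, 3.11 and 3.10 in VMH, against 1.43, 3.00 and 2.30 in DMH and 2.21 and 1.22 in Arc, and the difference of VMH from Arc was 1.29 (adjusted p = 0.279). Cacng4 (γ-4) varied most within a nucleus, from −2.55 to −0.14 between the Arc arrays, and its 95% interval for Arc ran from −2.36 to 0.66.

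Cornichon homologues bring AMPA receptors to the surface and slow their closing, and Cnih3 was higher in VMH. It read 0.69, 0.77 and 0.16 in VMH, against −1.69, −1.48 and −1.03 in DMH and −0.66 and −1.48 in Arc. All VMH arrays were above 0 and all others below it. VMH differed from the mean of DMH and Arc by 1.77 ± 0.27 SE (adjusted p = 0.028) and DMH from VMH by −1.94 (adjusted p = 0.0316), while VMH against Arc gave 1.61 (adjusted p = 0.0891). The VMH call held without Arc replicate 1 or DMH replicate 3 and ended without any 1 of the others (adjusted p 0.0534 to 0.127). Cnih2, the relative that is abundant in forebrain, spanned 0.56 log2 units over all 8 arrays, and every nucleus lay within −0.61 and 0.59 of the mean of the others (95% intervals).

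Neto1 and Neto2 are kainate receptor auxiliary subunits, and Neto1 also binds NMDA receptors. Neto1 read −0.17, 0.03 and 0.01 in VMH, against −0.79, −1.17 and −0.93 in DMH and −0.63 and −0.80 in Arc. VMH lay above all other arrays, with a log2 difference of 0.79 from the mean of DMH and Arc (adjusted p = 0.0813). A further Neto1 probe differed in direction for DMH (0.87, against −0.58 with the brightest probe). With it DMH replicates 1 and 2 read −1.26 and −1.90, above all VMH arrays (−2.22, −2.91 and −2.85). Neto2 ranged from −2.96 to −0.97 with its brightest probe, which overlapped between all nuclei.

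A further Neto2 probe, 2808 bases away, read −2.73, −2.33 and −3.09 in VMH, against −4.61, −3.56 and −4.63 in DMH and −6.18 and −6.21 in Arc, where it was not well above background on either array. On 1 DMH array it was also not well above background. The probe passed the filter through VMH alone, the nucleus where it is high, so its values are a description with no test. Of 17 members with several probes, 9 had probes that differed in direction in at least 1 of the 3 comparisons of a nucleus with the others: Cacng2, Cacng7, Gria4, Grik1, Grik2, Grin2a, Grin2b, Grm4 and Neto1. Some of these differed only by small amounts around 0. These were Cacng2 (VMH −0.08 and 0.01), Gria4 (VMH 0.25 and −0.02), Grik2 (VMH 0.18 and −0.02) and Cacng7 (DMH −0.32 and 0.01, Arc 0.12 and −0.23). The probes were further apart for Grik1 (VMH −0.29 and 0.40), Grin2a (Arc 0.57 and −0.59), Grin2b, Grm4 and Neto1. The share over all genes with several probes is not given here. The further probes of Cacng2, Grik1 and Grin2b were not well above background on every array.

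**Figure D4:**
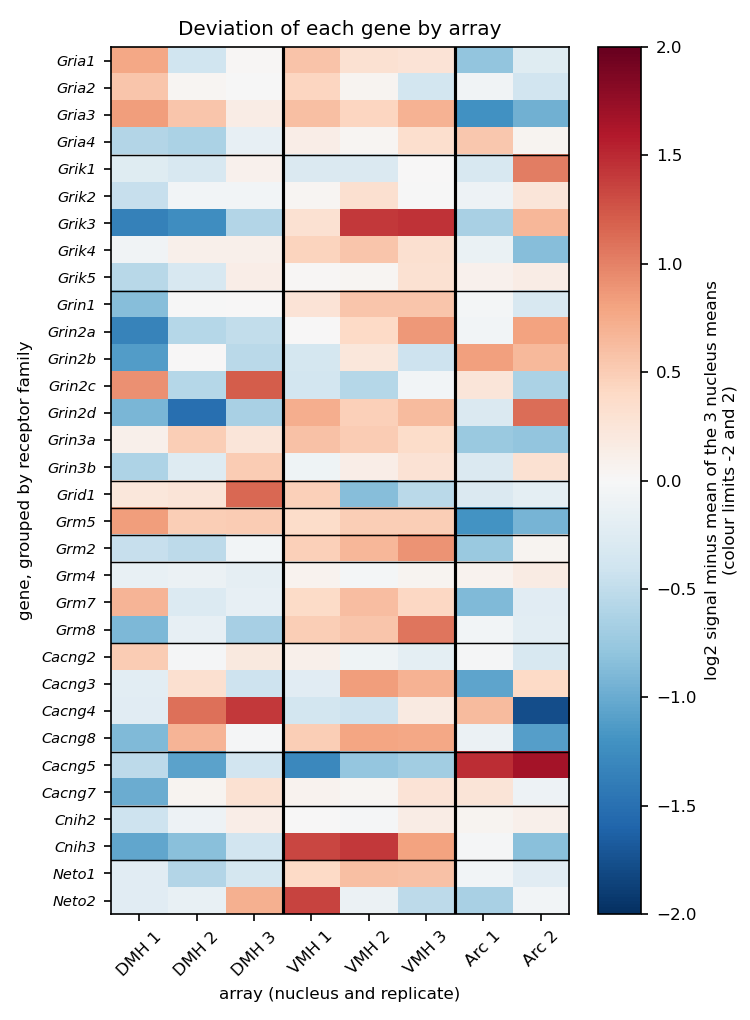
Deviation of each gene on each array from the mean of its 3 nucleus means, in log2 units, for 32 genes grouped by receptor family and 8 arrays grouped by nucleus. Red is above and blue below that mean; Cacng5 is red on both Arc arrays only and Cnih3 on all VMH arrays only.

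Other genes of glutamate synapses gave few calls. None of 13 other AMPA receptor partners passed the test in any of the 6 comparisons with limma. Against the mean of the others, 2 of 13 had an unadjusted p under 0.05 in Arc (15.7% of all genes), 3 in VMH (13.1%) and 0 in DMH (16.3%). None of 23 tested genes for postsynaptic scaffolds and kinases passed the test either. In Arc, VMH and DMH, 1, 5 and 3 of them had an unadjusted p under 0.05, beside the same shares of all genes. The median log2 difference of VMH from the mean of DMH and Arc was 0.15 over the partners and 0.24 over the scaffolds and kinases, against 0.01 over all genes. Of 7 adhesion genes of excitatory synapses, Nlgn1 (neuroligin 1) was higher in VMH than in Arc by 1.58 (adjusted p = 0.0488). Of 4 tested glutamate transport genes, Slc17a6, which encodes the vesicular transporter VGLUT2 of glutamate neurons, was lower in Arc than in the mean of DMH and VMH (log2 difference −2.71 ± 0.30 SE, adjusted p = 0.0146). Slc17a6 was higher in VMH than in the mean of DMH and Arc by 1.68 (adjusted p = 0.0299), but VMH and DMH overlapped. DMH was also above Arc, by 2.49 (adjusted p = 0.0365).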

How the data were processed

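The deposited red (Cy5) spot intensities were used, from which Agilent Feature Extraction (version 11.5.1.1, per the submitters' processing notes) had removed background and spatial trend, per the file headers; arrays had not been normalized to each other. The flags for spots above background and for outliers are also those deposited. Groups and replicate numbers came from the labels. All arrays lie on 1 slide from 1 scan. The authors' deposited values of the whole series were not used, since each column runs on in constant steps after its first entries.

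Here log2 of the processed signal minus the array's 75th percentile over non-control spots was taken. Outlier spots were left out, spots of a probe were averaged, and a probe was kept if all arrays of some nucleus read it well above background. The brightest kept probe stood for each gene (27435 genes, 27419 tested in all comparisons). limma 3.58.1 (lmFit, eBayes, R 4.3.3, and data.table, version 1.17.8) fitted a mean per nucleus, with 5 residual degrees of freedom and Benjamini-Hochberg adjustment within each comparison. The model was tested on simulated data. Names matched RefSeq symbols (assembly GRCm38.p6) for all 34 members, used for names only.

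Values on every array are given for each member past the threshold, extended to 12 members by the smallest p across the nuclei, and for further probes and members whose probes disagree. Grin2b, Cacng8 and the further probes were given in full after their values were seen. Members and lists were chosen with earlier results of these data known.

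Alternatives were normexp (offset 50), quantile normalization, no filter and a stricter filter on dim probes, the mean of a gene's probes, a block for replicate number or slide row, trended and robust eBayes, each array left out, and, chosen after seeing the data, each probe fitted on its own.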

Additional observations from a re-analysis of the deposited data

How the results depend on the processing

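All 13 single-gene calls kept their direction under every alternative that was run, including within each of the 2 slide rows, and most lost their call under some. For slide rows and for arrays left out, this direction was fixed in advance. All Arc arrays lay apart from all others in Cacng5, Gria3, Grin3a and Grm5, as did all VMH arrays in Cnih3. Any subset of arrays thus gives the same sign. The Arc difference of Cacng5 held in 16 of 17 tested alternatives (log2 difference 1.85 to 2.48), that of Grm5 in 10, of Gria3 in 7 and of Grin3a in 4. The VMH difference of Cnih3 held in 10 of 17.

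With the replicate number as a block, every count of members past the threshold was 0. The labels give no shared animal or day for the numbers. Deviations of same-numbered arrays correlated at 0.072 to 0.185 in 7 pairs, against −0.126 to 0.0155 in 14 other pairs, and all 8 arrays correlated best with their own number. Deviations were taken from the mean of each nucleus, so part of this contrast is fixed in advance. A positive value with 1 Arc array gives an equal negative value with the other (DMH replicate 1: 0.072 and −0.072).

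Counts of members otherwise moved as follows, with the main count before the alternative. In Arc against the mean of DMH and VMH, 3 lower became 1 with the mean of probes (Grin3a) and 1 without a filter on dim probes (Grm5). In VMH against the mean of DMH and Arc, 1 higher became 2 with the mean of probes and 2 with trended and robust eBayes, and 1 lower became 0 without a filter and 0 with slide row as a block. In DMH against the mean of VMH and Arc, 0 higher became 1 (Grm5) with normexp and 1 with trended and robust eBayes. In DMH against VMH, 1 lower became 2 with the mean of probes, 3 with normexp (Grik3, Cnih3 and Neto1), 2 with trended and robust eBayes and 0 without a filter. In DMH against Arc, 1 higher became 2 (Gria3 and Grm5) with normexp, quantile normalization, probes well above background on all arrays, and trended and robust eBayes, and 0 without a filter or with slide row as a block, under both of which 1 lower also became 0. In VMH against Arc, 3 higher became 1 without a filter.

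Leaving out 1 array at a time gave 1 to 1 higher and 0 to 2 lower in Arc against the mean of DMH and VMH, 0 to 1 higher and 0 to 1 lower in VMH against the mean of DMH and Arc, and 0 to 0 higher and 0 to 1 lower in DMH against the mean of VMH and Arc (Grin2d without Arc replicate 1). In DMH against VMH it gave 0 to 0 higher and 0 to 1 lower, in DMH against Arc 0 to 1 higher and 0 to 1 lower, and in VMH against Arc 0 to 3 higher and 1 to 1 lower. Among pairs, Grm5 in DMH against Arc held only without Arc replicate 2, Cacng5 in DMH against Arc only without VMH replicate 1, Grin3a in VMH against Arc only without DMH replicate 1, and Gria3 in VMH against Arc only without DMH replicate 1 or 3. The cause of these changes was not tested. Cnih3 in DMH against VMH ended without any 1 DMH or VMH array (adjusted p 0.064 to 0.119), and Grm5 in VMH against Arc without Arc replicate 1, DMH replicate 3 or any 1 VMH array (adjusted p 0.0504 to 0.0933). The medians over members in DMH against Arc changed sign with the mean of probes (0.38, against −0.12).

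With 2 or 3 arrays a nucleus, only large differences pass; a member that missed the threshold is not shown to be equal between nuclei.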
